A study of Drosophila melanogaster
Mus musculus with 36 samples.

Results

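The mir-279 and mir-996 locus of Drosophila melanogaster gives rise to a pair of microRNA (miRNA) hairpins from 1 primary transcript, and its members here were every entry of the count files whose name starts with dme-mir-279- or dme-mir-996-. These were 4 arms, dme-mir-279-3p, dme-mir-279-5p, dme-mir-996-3p and dme-mir-996-5p, of 372 fly arms and 2038 entries of both species. In the RefSeq gene table for Drosophila Release 6, both hairpins lie on chromosome arm 3R inside the long noncoding RNA gene CR31044, whose synonym names it as the primary transcript of both. The rule uses names alone.

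A miRNA hairpin is cut into a duplex of a 5p and a 3p arm, of which usually 1 is kept in an Argonaute protein as the guide and the other, the star strand, is mostly discarded. In miR-279 and miR-996 the 3p arm is the guide, and both guides share the seed, the stretch near the 5′ end that selects targets. In flies miR-279 is known for blocking the formation of surplus CO2-sensing olfactory neurons through the transcription factor gene nerfin-1 and for limiting JAK/STAT signalling in border cells of the ovary, and miR-996 can stand in for much of its function.

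RNA of Drosophila S2-S cells, genotype DmHen1-KO; FLAG-MYC-AthHEN1, had been combined with RNA of the mouse embryonic stem (ES) cell clone AN3-12 at fly to mouse ratios of 1:1, 1:10, 1:100, 1:1000, 1:10000 and 1:100000. At each ratio 3 libraries were oxidised with sodium periodate and 3 were left untreated, which gives 12 groups and 36 libraries. Plant HEN1 methylates the terminal ribose of both strands of a miRNA duplex, and periodate destroys unmethylated ends so that they cannot be ligated, so oxidation is meant to keep fly and remove mouse miRNAs. All groups carry the same fly genotype, and no fly cells without plant HEN1 are among the samples. The sources used here do not give the promoter of the transgene or whether the fly cells are 1 clone, and neither the knockout nor the transgene can be checked in miRNA counts.

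The total miRNA count was between 3654 and 1312983 in oxidised libraries (median 37848) and between 326776 and 16619583 in untreated libraries (median 4345832). At 1:1, 6 of 6 S2 markers had counts and made up between 36.7% and 44.5% of fly counts in oxidised libraries and between 51.6% and 66.0% in untreated libraries. Markers of other fly cell types, 3 of 5 of them in the files, were all at 0 in oxidised 1:1 libraries, which allows up to 0.00984% of fly counts in the shallowest of them, and summed to at most 0.00253% of fly counts in untreated ones, with let-7-5p at 0. All 12 mouse ES cell markers had counts, at between 4.89% and 9.54% of mouse counts in oxidised 1:1 libraries and between 64.0% and 66.8% in untreated ones. Markers of other mouse cell types, 4 of 5 in the files, summed to between 0.0118% and 0.0358% of mouse counts in oxidised 1:1 libraries, where 3 of them were at 0, and to between 0.185% and 0.224% in untreated ones. The replicate 1 set differed from the other sets in the amount of RNA mixed and in the sequencer (HiSeq2500 against HiSeq2000), and it stood apart in the level of dme-mir-996-3p, as given below. The labels do not tie the replicates to separate cultures, so p-values measure the spread between these libraries, which may be technical.

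The guide arm of mir-279 took about the same share of the fly miRNAs in oxidised and in untreated libraries of the less diluted mixtures. At 1:1, dme-mir-279-3p had 10158, 301 and 3362 counts in oxidised replicates 1, 2 and 3, against 18497, 987 and 12160 counts in the untreated ones. As a share of fly miRNA counts this was 0.871%, 0.988% and 1.05% in the oxidised libraries, against 1.17%, 0.653% and 1.10% in the untreated libraries. The untreated libraries lay both above and below the oxidised ones, so the groups overlapped. At 1:10 the share was 0.918 ± 0.168% in oxidised and 0.968 ± 0.255% in untreated libraries (SD, n = 3 each), again with overlap.

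At 1:100 the share of dme-mir-279-3p was 1.16 ± 0.317% in oxidised and 1.58 ± 0.393% in untreated libraries (SD, n = 3 each). At 1:1000 it was 0.463 ± 0.241% in oxidised libraries, from 298 counts in all, and 0.915 ± 0.130% in untreated libraries, from 159 counts. There the highest oxidised library (0.715%) was below the lowest untreated one (0.829%). At 1:10000 it was 0.646 ± 0.140% in oxidised and 1.08 ± 0.252% in untreated libraries, again without overlap, but the untreated value rests on 22 counts. At 1:100000, with 15 counts in oxidised and 19 in untreated libraries, of which untreated replicate 2 had none, the groups overlapped. Since the material is mixed RNA and these levels are shares of fly counts, they do not give the amount of miRNA per cell.

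The guide arm of mir-996 held a lower share of fly miRNAs after oxidation, at 1:1, 1:10 and 1:100 in every pair of libraries made from the same mixture. At 1:1, dme-mir-996-3p had 3427, 232 and 3259 counts in the oxidised libraries, against 6796, 1971 and 13578 in the untreated ones. Its share of fly counts was 0.294%, 0.761% and 1.02% in the oxidised libraries, against 0.430%, 1.30% and 1.23% in the untreated libraries. Replicate 1 was the lowest library of both groups, which therefore overlapped.

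The mean gap on the log2 scale was larger at 1:10 and 1:100, a trend that was not tested. At 1:10 dme-mir-996-3p took 0.447 ± 0.210% of fly counts in oxidised and 0.999 ± 0.462% in untreated libraries (SD, n = 3 each). At 1:100 it had 102, 60 and 19 counts in the oxidised libraries, against 159, 134 and 2262 in the untreated ones. The share there was 0.206%, 0.258% and 0.305% in the oxidised libraries, against 0.506%, 1.12% and 1.27% in the untreated libraries. At this ratio the groups did not overlap. At 1:1000, 1:10000 and 1:100000 the mean shares were 0.555%, 0.627% and 0.555% in oxidised libraries and 1.09%, 0.777% and 0.182% in untreated libraries, and the groups overlapped at the first of these ratios and at 1:10000. At 1:100000 every oxidised library was above every untreated one, from 27 counts in oxidised and 7 in untreated libraries.

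The star strand of mir-996 moved the other way. At 1:1, dme-mir-996-5p had 2518, 101 and 724 counts in the oxidised libraries, against 601, 142 and 847 in the untreated ones. Its share of fly counts was 0.216%, 0.331% and 0.226% in the oxidised libraries, against 0.0380%, 0.0940% and 0.0768% in the untreated libraries. At 1:10 it was 0.249%, 0.331% and 0.363% in the oxidised libraries, against 0.0501%, 0.0914% and 0.0763% in the untreated libraries. Every oxidised library was above every untreated library at both ratios.

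At 1:100 dme-mir-996-5p had 130, 101 and 26 counts in the oxidised libraries, against 8, 6 and 109 in the untreated ones. The share was 0.371 ± 0.0947% in oxidised and 0.0455 ± 0.0182% in untreated libraries (SD, n = 3 each), again without overlap. At 1:1000 it had 4, 20 and 26 counts in the oxidised libraries, against 0, 1 and 0 in the untreated ones, and the smallest gap there, in replicate 2, was between shares of 0.0761% in the oxidised and 0.0754% in the untreated library. At 1:10000 the counts were 0, 30 and 7 in oxidised and 2, 0 and 1 in untreated libraries, and at 1:100000 they were 0 in all oxidised libraries and 3, 0 and 1 in untreated ones. In these last mixtures a share of the star strand rests on too few reads for a direction to be read.

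The star strand of mir-279 was the rarest of the 4 arms. At 1:1, dme-mir-279-5p had 260, 5 and 72 counts in the oxidised libraries, against 201, 42 and 236 in the untreated ones, or 0.0204 ± 0.00346% of fly counts in oxidised and 0.0206 ± 0.00757% in untreated libraries (SD, n = 3 each). At 1:10 its share was 0.0342 ± 0.00826% in oxidised and 0.0182 ± 0.00131% in untreated libraries, and every oxidised library was above every untreated one. At 1:100 the 14, 8 and 1 counts in the oxidised libraries and the 4, 1 and 29 in the untreated ones gave shares that overlapped. Beyond that ratio it was counted in oxidised replicate 2 alone, with 5 counts at 1:1000 and 3 at 1:100000, and in no untreated library.

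**Figure D1:**
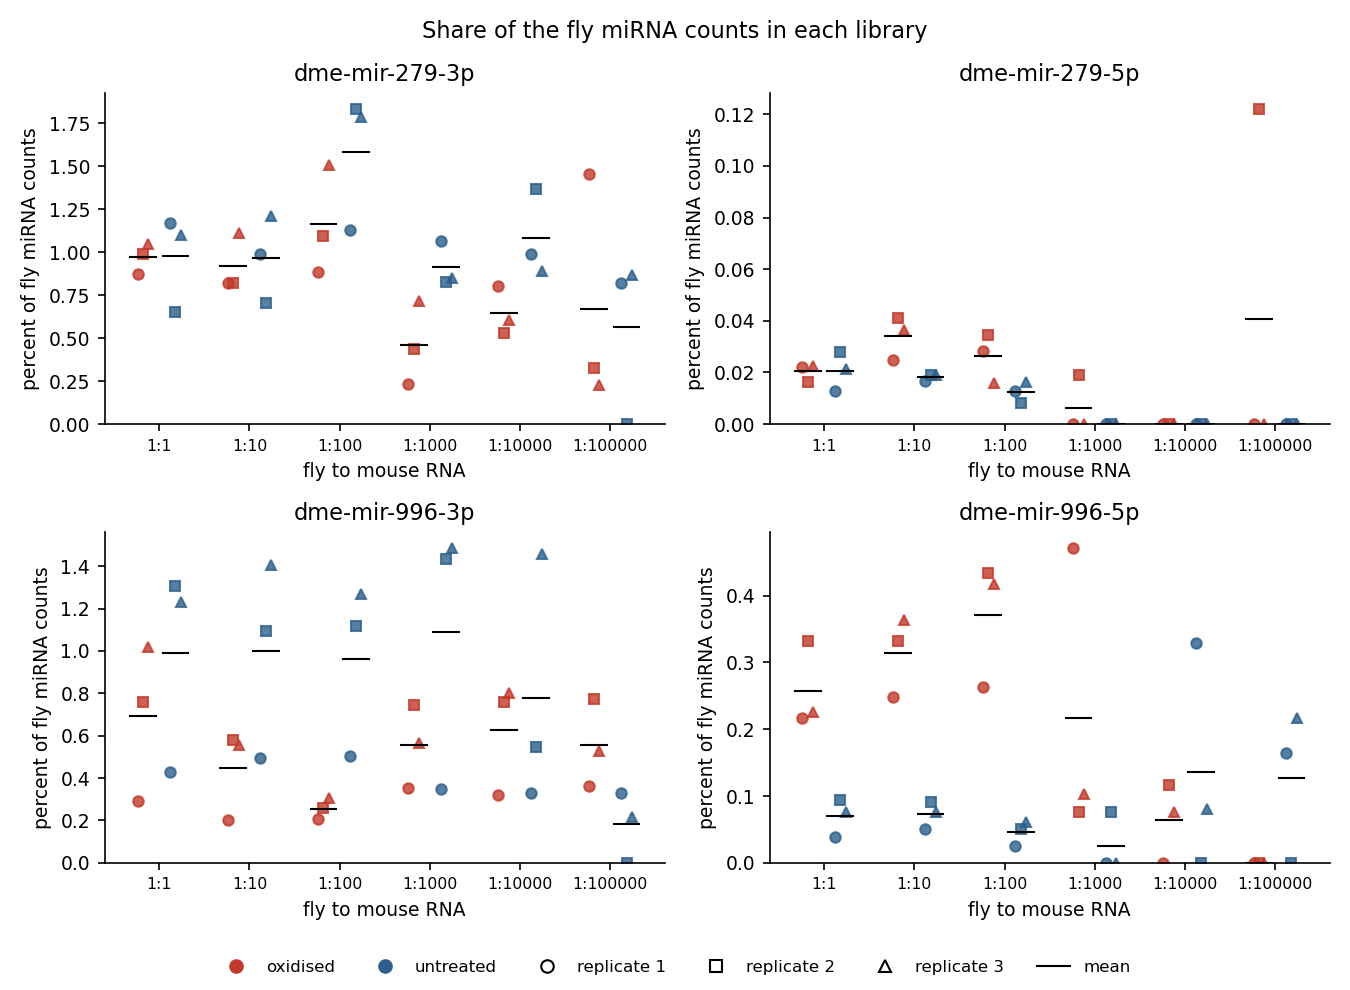
Percent of the fly miRNA counts (y axis, linear, from 0) taken by each of the 4 arms in every library, at the 6 ratios of fly to mouse RNA (x axis), with oxidised libraries in red and untreated libraries in blue, replicates as marker shapes and group means as black lines. The dme-mir-996-5p panel shows the oxidised libraries above all untreated ones at 1:1, 1:10 and 1:100, while in the dme-mir-996-3p panel oxidised replicate 1 and untreated replicate 1 are the lowest library of their groups at 1:1, 1:10 and 1:100.

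Ordered by mean share of fly counts at 1:1, dme-mir-279-3p was 25th, dme-mir-996-3p 32nd, dme-mir-996-5p 45th and dme-mir-279-5p 78th of 262 fly arms with counts in oxidised libraries. In untreated libraries dme-mir-996-3p was 22nd, dme-mir-279-3p 23rd, dme-mir-996-5p 55th and dme-mir-279-5p 77th of 325. The guide arms, at 0.989 ± 0.485% and 0.976 ± 0.281% in untreated libraries (SD, n = 3 each), did not differ beyond their spread and were next to each other in that order. In oxidised 1:1 libraries dme-mir-996-3p took 0.691 ± 0.367%. Its lowest library (0.294%, replicate 1) was below the highest of dme-mir-996-5p (0.331%, replicate 2). Within each of these libraries, however, the guide was above its star strand. The shares were 0.294% against 0.216% in replicate 1, 0.761% against 0.331% in replicate 2 and 1.02% against 0.226% in replicate 3. Just above and below dme-mir-996-5p stood dme-mir-1003-3p (0.263%) and dme-mir-305-3p (0.252%) in oxidised libraries, and dme-mir-13b-2-5p (0.0789%) and dme-mir-276a-5p (0.0693%) in untreated ones. These neighbours were within the SD of dme-mir-996-5p in both groups.

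All 4 arms together made up 1.94 ± 0.476% of fly counts in oxidised and 2.05 ± 0.391% in untreated 1:1 libraries (SD, n = 3 each). At 1:10 the locus held 1.71 ± 0.387% in oxidised and 2.06 ± 0.593% in untreated libraries, and at 1:100 it held 1.82 ± 0.433% in oxidised and 2.60 ± 0.808% in untreated libraries. At 1:1000 it held 1.24 ± 0.165% in oxidised and 2.03 ± 0.535% in untreated libraries, and at 1:10000 it held 1.34 ± 0.191% in oxidised and 1.99 ± 0.398% in untreated libraries. The mean was lower in oxidised libraries at each of these 5 ratios. At 1:100000 it was the higher one, with 1.26 ± 0.534% in oxidised and 0.874 ± 0.757% in untreated libraries.

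The test of these shifts among fly miRNAs used edgeR's quasi-likelihood fit over all 36 libraries, scaled to fly totals and to the trimmed mean of M values (TMM) over fly entries, with p-values adjusted by Benjamini-Hochberg over the 576 tested entries of both species. Of the fly arms 117 passed the filter on low counts, and the 4 arms of the locus were among them. A change was called at an adjusted p below 0.05. A positive log2 change means a higher TMM-scaled level among fly miRNAs in oxidised libraries, which can differ from the change in plain share. In these results pairs are compared on plain shares of fly counts.

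At 1:1 none of the 4 arms was called, against 7.69% of fly arms called higher and 16.2% called lower. The change of dme-mir-996-5p was 1.31 ± 0.63 (log2, SE), or 2.49-fold on the TMM scale, higher in 3 of 3 pairs. It had an unadjusted p of 0.0431 and an adjusted p of 0.0515 in edgeR. With each mixture as a block the edgeR change was 1.43 with an adjusted p of 0.000423. That block called 31 of 117 fly arms higher and at most 28 lower. With fly entries fitted alone, an alternative added after the data were seen, the edgeR adjusted p was 0.0366. In that fit 12.0% of fly arms were called higher and 18.8% lower. Without untreated replicate 2 the edgeR change was 1.69 (adjusted p = 0.0358). dme-mir-996-3p changed by -1.16 ± 0.75 (edgeR adjusted p = 0.148), lower in 3 of 3 pairs, and the mixture block gave -1.07 with an adjusted p of 0.00214. Without untreated replicate 1, the low library of its group, the edgeR change was -1.76 (adjusted p = 0.0434). The mir-279 arms had log2 changes of -0.53 ± 0.64 (3p) and -0.49 ± 0.58 (5p). The plain share of the 5p arm was nevertheless higher in 2 of 3 pairs.

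At 1:10 the star strand of mir-996 was called higher, where 13.7% of fly arms were, with a log2 change of 1.91 ± 0.64 (3.76-fold, edgeR adjusted p = 0.00592) in 3 of 3 pairs. Without untreated replicate 3 this change was 1.46 (edgeR adjusted p = 0.0675) and the call was lost. It was also lost without the replicate 2 set (2.14, edgeR adjusted p = 0.0618), without the replicate 3 set (1.49, edgeR adjusted p = 0.177), without a filter on low counts (1.91, edgeR adjusted p = 0.143) and in DESeq2 (1.56, adjusted p = 0.177). dme-mir-996-3p had a log2 change of -1.41 ± 0.75 (edgeR adjusted p = 0.0787), lower in 3 of 3 pairs, where 12.8% of fly arms were called lower. It was called with the mixture as a block (-1.36, edgeR adjusted p = 0.00018) and without untreated replicate 1 (-1.76, edgeR adjusted p = 0.0444). The block called 28 of 117 fly arms lower. The mir-279 arms were not called, with -0.26 ± 0.64 for 3p and 0.69 ± 0.58 for 5p.

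At 1:100 both arms of mir-996 were called, in opposite directions. dme-mir-996-5p rose by 2.61 ± 0.68 on the log2 scale (6.12-fold, edgeR adjusted p = 0.000509) in 3 of 3 pairs and ranked 4th of the 117 fly arms, of which 13.7% were called higher. dme-mir-996-3p fell by 2.29 ± 0.78 on the log2 scale, to 0.204 of its untreated TMM-scaled level (edgeR adjusted p = 0.00649), in 3 of 3 pairs. It ranked 106th, where 12.8% were called lower. Without the replicate 2 set it was -2.26 (edgeR adjusted p = 0.115) and without the replicate 3 set -2.18 (edgeR adjusted p = 0.088), and without a filter on low counts the call was also lost (-2.29, edgeR adjusted p = 0.0787), while dme-mir-996-5p was called under each omission of a set. dme-mir-279-3p changed by -0.81 ± 0.65, lower in 3 of 3 pairs, and was called only with the mixture as a block (-0.75, edgeR adjusted p = 0.0131). That block called 28 of 117 fly arms lower. dme-mir-279-5p changed by 0.72 ± 0.69 and was not called.

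At 1:1000 the star strand of mir-996 was again called higher, where 10.3% of fly arms were, with a log2 change of 4.14 ± 1.18 (edgeR adjusted p = 0.00136) that is set against 1 count in the 3 untreated libraries. In the replicate 2 pair, which holds that count, the log2 change was 0.01. Without 1 replicate set or library it was between 2.96 and 11.99, and without the replicate 3 set it was not called (3.04, edgeR adjusted p = 0.0849). There the mixture block also called dme-mir-996-3p (-1.25, edgeR adjusted p = 0.00548) and dme-mir-279-3p (-0.98, edgeR adjusted p = 0.00981) lower, which without it had edgeR adjusted p-values of 0.139 and 0.159. At 1:10000 and 1:100000, where 2.56% and 4.27% of fly arms were called higher and 7.69% and 3.42% lower, no arm that was counted in both groups was called without a block. The mixture block called dme-mir-279-3p lower at 1:10000 (-0.96, edgeR adjusted p = 0.0401). At 1:1000 and at 1:10000 that block called at most 15 of 117 fly arms lower. As a mean over the 6 ratios, where 15.4% of fly arms were called lower, dme-mir-279-3p fell by 0.71 ± 0.28 (edgeR adjusted p = 0.0174) and dme-mir-996-3p by 0.92 ± 0.33 (edgeR adjusted p = 0.00905). Without replicate 3 these means were -0.65 (edgeR adjusted p = 0.204) and -0.67 (edgeR adjusted p = 0.218), and without replicate 2 that of dme-mir-279-3p was -0.75 (edgeR adjusted p = 0.162). On plain fly totals they were -0.43 and -0.60, and neither was called.

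The most abundant fly miRNA, dme-bantam-3p, which promotes growth and survival of fly cells, took between 10.2% and 10.7% of fly counts in oxidised 1:1 libraries and between 35.2% and 51.7% in untreated ones. Its part in the shares of the other arms was not tested. Without bantam in the scaling, the log2 change of dme-mir-996-5p was 1.02 at 1:1 (edgeR adjusted p = 0.125) and 1.44 at 1:10 (edgeR adjusted p = 0.0323). That of dme-mir-996-3p was then -1.40 at 1:1 (edgeR adjusted p = 0.0834) and -1.83 at 1:10 (edgeR adjusted p = 0.0252). On plain fly totals, with bantam in them, dme-mir-996-5p at 1:1 changed by 1.89 (edgeR adjusted p = 0.00773) and dme-mir-996-3p was not called.

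**Figure D2:**
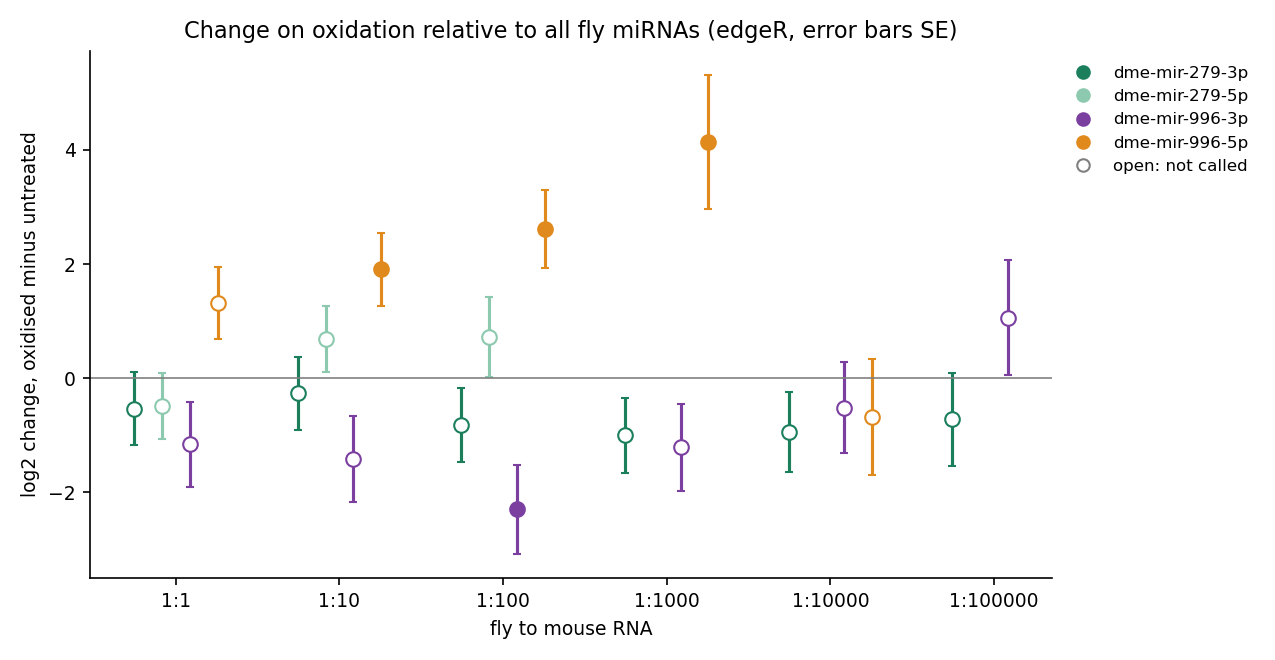
Log2 change of each arm relative to all fly miRNAs, oxidised minus untreated (y axis), at the 6 ratios of fly to mouse RNA (x axis), from the edgeR fit over 36 libraries with SE as bars; filled points were called at an adjusted p below 0.05, and arms with no count in a group are left out. The points of dme-mir-996-5p lie above 0 at the first 4 ratios, up to 4.14 at 1:1000, and those of dme-mir-996-3p lie below 0 there, down to -2.29 at 1:100.

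Within the mir-996 hairpin, where no scaling enters, the star strand took a larger part of the counts after oxidation. The 5p arm made up 42.4%, 30.3% and 18.2% of the hairpin's counts in oxidised 1:1 replicates 1, 2 and 3, against 8.12%, 6.72% and 5.87% in the untreated ones. At 1:10 it made up 54.9%, 36.5% and 39.5% in the oxidised libraries, against 9.16%, 7.70% and 5.15% in the untreated libraries. At 1:100 it made up 56.0%, 62.7% and 57.8% in the oxidised libraries, against 4.79%, 4.29% and 4.60% in the untreated libraries. In these 3 mixtures no oxidised library came near an untreated one, and at 1:100 the star strand outnumbered the guide in every oxidised library.

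The log2 ratio of 5p over 3p counts of mir-996 (pseudocount 0.5) was higher in oxidised than in untreated libraries by 2.49 at 1:1, by 3.32 at 1:10, by 4.84 at 1:100 and by 3.91 at 1:1000. At each of these ratios all 3 oxidised libraries were above all 3 untreated ones, for which the exact two-sided permutation test gives p = 0.1, the smallest that 3 against 3 allows. Over the 6 ratios, with labels permuted within ratios, the difference was 1.75, higher in 13 of 18 pairs, with an exact permutation p of 0.0126 and 0.0377 after adjustment over the 3 arm ratios tested. Without replicate 1 the difference was 1.50 (exact permutation p = 0.0926) and without replicate 3 it was 1.56 (exact permutation p = 0.0681). With the 2 libraries of a mixture kept as a pair, by sign flips within mixtures, the same difference had an exact permutation p of 0.0391, or 0.117 after adjustment over the 3 arm ratios, which misses the threshold.

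At 1:10000 the difference in log2 ratio was -0.79 (exact permutation p = 0.7), and at 1:100000 it was -3.30, lower in 3 of 3 pairs and without overlap (exact permutation p = 0.1), with 0 counts of the 5p arm in oxidised and 4 in untreated libraries. Untreated 1:100000 replicate 2 had 0 counts of both arms, and the pseudocount alone gave it a log2 ratio of 0. So that pair measures no arm balance, yet it entered this comparison. It also entered the tests over 6 ratios of all 3 arm ratios. In oxidised 1:1000 replicates 2 and 3, with 216 and 169 counts of the hairpin, the 5p arm was 9.26% (95% Wilson interval 6.07% to 13.9%) and 15.4% of the hairpin, and in oxidised 1:10000 replicates 2 and 3, with 224 and 81 counts, it was 13.4% and 8.64%. Oxidised 1:1000 replicate 1 had 57.1% from 7 counts. The oxidised share in replicates 2 and 3 was thus lower at 1:1000 than at 1:100, although the 1:1000 libraries held more counts of the hairpin, against 5.00% (1 of 20 counts, 95% Wilson interval 0.888% to 23.6%) in untreated 1:1000 replicate 2 and 0 of 183 counts (upper limit 2.06%) in untreated replicate 3. The interval of untreated replicate 2 holds both oxidised values. At least 10 counts of the hairpin were present in 27 libraries. At 1:100000 no untreated library was among them, so that ratio dropped out. Over the 5 ratios left the difference was 2.82 (exact permutation p = 8.3e-06). Over 1:1, 1:10 and 1:100 alone, chosen after the data were seen, it was 3.55 (exact permutation p = 0.00025, the smallest these ratios allow).

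Within the mir-279 hairpin the star strand stayed a small part. It made up 2.08 ± 0.431% of the hairpin's counts in oxidised and 2.35 ± 1.55% in untreated 1:1 libraries (SD, n = 3 each), with overlap. At 1:10 it made up 3.63 ± 0.985% in oxidised and 1.94 ± 0.597% in untreated libraries, and at 1:100 it made up 2.39 ± 1.16% in oxidised and 0.823 ± 0.338% in untreated libraries. The log2 ratio of 5p over 3p was higher in oxidised libraries by 0.05 at 1:1, 0.94 at 1:10 and 1.48 at 1:100, and at 1:10 and 1:100 the groups of log2 ratios did not overlap (exact permutation p = 0.1 each, the smallest possible). The 5p shares themselves overlapped at 1:100, where oxidised replicate 3 had 1.05% (1 of 95 counts) and untreated replicate 1 had 1.11%. Over all 6 ratios the difference was 0.28 (exact permutation p = 0.588), and without replicate 1 it was -0.38. Beyond 1:100 the 5p arm had 0 counts in every untreated library, and at 1:10000 in every oxidised one. The log2 ratios there follow the pseudocount and the 3p counts, so the values over 6 ratios cannot decide whether the arm balance changed. Over the first 3 ratios the difference was 0.83 (exact permutation p = 0.017), again chosen with the values known.

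A gain of the less abundant arm was frequent among fly hairpins. Among the 45 hairpins with a mean of at least 10 counts for both arms at 1:1, a rule set after values were seen, the arm that was minor in untreated libraries gained on the major one in 68.9%, with a median log2 gain of 0.58, and mir-996 ranked 7th and mir-279 31st. At 1:10, 69.4% of 36 hairpins gained, with a median of 0.90, and mir-996 ranked 3rd and mir-279 18th. At 1:100, 71.0% of 31 hairpins gained, with a median of 1.08 and a range of -5.40 to 4.84, and mir-996 had the highest value of the 31. mir-279 had too few 5p counts at 1:100 to be included. The minor arm was picked on the same untreated counts from which its gain was taken, which favours a gain. The filter averaged oxidised and untreated counts, so a scarce arm that rose on oxidation passed it more readily.

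**Figure D3:**
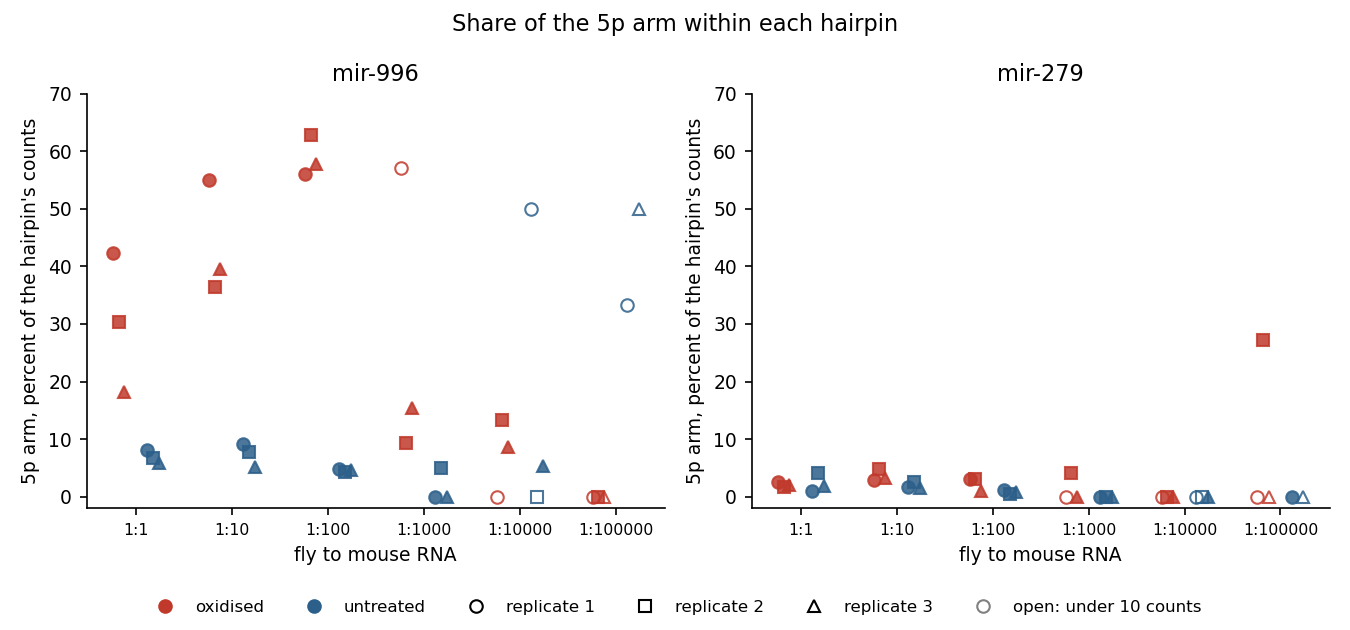
Percent of a hairpin's counts on its 5p arm (y axis) in each library at the 6 ratios (x axis), for mir-996 (left) and mir-279 (right), with oxidised libraries in red, untreated in blue, replicates as marker shapes and open markers for libraries with under 10 counts of the hairpin. For mir-996 the oxidised libraries reach 62.7% at 1:100 and are at 9.26% and 15.4% in 1:1000 replicates 2 and 3, while untreated libraries with 10 or more counts stay at or below 9.16%.

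The guide arms were compared with each other in the same way. dme-mir-996-3p made up 25.2%, 43.5% and 49.2% of the counts of both guides in oxidised 1:1 replicates 1, 2 and 3, against 26.9%, 66.6% and 52.8% in the untreated ones. Replicate 1 was the lowest library in both groups, and the groups overlapped (exact permutation p = 0.5 for the log2 ratio). At 1:100 it made up 18.2 ± 1.24% in oxidised and 36.8 ± 5.38% in untreated libraries (SD, n = 3 each), without overlap. The log2 ratio of dme-mir-996-3p over dme-mir-279-3p was lower in oxidised libraries in all 9 pairs at 1:1, 1:10 and 1:100, by 0.57, 1.12 and 1.36 on the mean. Over these ratios, chosen after the data were seen, the difference was -1.02 (exact permutation p = 0.015), and over all 6 ratios it was -0.17 (exact permutation p = 0.614, lower in 12 of 18 pairs), since at the 3 most dilute ratios the means were 0.31, 0.53 and 1.18.

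Relative to mouse miRNAs, all 4 arms were enriched by oxidation. Per 1000000 mouse miRNA counts, dme-mir-279-3p had 68931, 71559 and 103241 counts in oxidised 1:1 replicates 1, 2 and 3, against 4947, 5616 and 9738 in the untreated ones. At 1:100 it had 42263 ± 24804 in oxidised and 149 ± 78.4 in untreated libraries (SD, n = 3 each). For dme-mir-996-5p the means were 21110 and 549 at 1:1, and 13831 and 4.42 at 1:100, in oxidised and in untreated libraries. No oxidised library was near an untreated library at these ratios.

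In the edgeR fit scaled to mouse totals and TMM over mouse entries, all 4 arms were called higher at 1:1, 1:10 and 1:100, where 98.3%, 98.3% and 92.3% of the tested fly arms were. The log2 changes of dme-mir-279-3p were 5.77, 7.79 and 7.91 (SE at most 1.21), and those of dme-mir-996-3p were 4.93, 6.59 and 6.37 (SE at most 1.26), each with an edgeR adjusted p of at most 0.000819. The changes of dme-mir-996-5p were 7.42 ± 1.15, 9.92 ± 1.27 and 11.40 ± 1.35, which ranked 22nd, 8th and 1st of the 117 fly arms. Those of dme-mir-279-5p were 5.78 ± 0.92, 8.75 ± 1.05 and 9.13 ± 1.16. The medians over all fly arms were 6.61, 8.44 and 8.36, so the guides were below and the star strand of mir-996 above them at each of these ratios.

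At 1:1000, 1:10000 and 1:100000, where 82.1%, 73.5% and 55.6% of fly arms were called higher, both guides were called higher at each ratio, with log2 changes of 7.79, 8.35 and 6.75 for dme-mir-279-3p and of 7.51, 9.30 and 8.63 for dme-mir-996-3p. dme-mir-996-5p was called at 1:1000 (12.07 ± 1.56, 1st of 117) and at 1:10000 (8.59 ± 1.40), and had 0 counts in oxidised and 4 in untreated libraries at 1:100000, where a count of 0 allows up to 49.9 per 1000000 mouse counts (3 counts over the group). For dme-mir-279-5p at 1:1000 there were 5 counts in oxidised and 0 in untreated libraries. Pooled over each group, the oxidised level was 696-fold above a floor of 3 counts in the untreated group, with the 5 counts taken as exact. All 5 counts were in replicate 2, so without that library there is no such value. In that replicate the oxidised level was 329 per 1000000 mouse counts, against a floor of 6.66 in the untreated library. As a mean over ratios, where 57.3% of fly arms were called higher, the log2 change was 7.39 ± 0.49 for dme-mir-279-3p and 7.22 ± 0.54 for dme-mir-996-3p.

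These sizes depend on the mouse scaling. mmu-mir-184-3p alone took between 85.1% and 91.6% of mouse counts in oxidised 1:1 libraries and between 4.24% and 10.2% in untreated ones. With plain mouse totals the log2 changes at 1:1 were 3.59 for dme-mir-279-3p and 5.27 for dme-mir-996-5p, and with TMM but without mmu-mir-184-3p they were 5.80 and 7.46. The counts per 1000000 mouse counts given above include that entry. In untreated libraries the share of mmu-mir-184-3p in mouse counts fell as fly RNA was diluted. It was 4.24%, 10.2% and 8.58% at 1:1 in replicates 1, 2 and 3. At 1:100 it was 0.0523%, 0.105% and 0.0999%. Whether reads of mmu-mir-184-3p came from mouse or fly RNA was not tested. The levels per 1000000 mouse counts therefore hold only on the totals as deposited. Without replicate 3, dme-mir-996-3p at 1:1 was not called (4.64, edgeR adjusted p = 0.0674).

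Along the dilution series a level proportional to fly RNA would fall by 3.32 on the log2 scale, relative to mouse miRNAs, for each 10-fold dilution. Over 1:1, 1:10 and 1:100 in oxidised libraries the slopes were -1.62 ± 0.38 for dme-mir-279-3p, -1.54 ± 0.47 for dme-mir-279-5p, -2.35 ± 0.55 for dme-mir-996-3p and -1.41 ± 0.46 for dme-mir-996-5p (SE), and the median fly arm had -1.80. In untreated libraries the same slopes were -2.86 ± 0.37, -3.63 ± 0.45, -3.35 ± 0.51 and -3.62 ± 0.48, with a median of -3.20. The oxidised slope was the less steep of the pair for each arm, but at these ratios the difference of the slopes was called for none of them (edgeR adjusted p between 0.109 and 0.478).

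Over all 6 ratios the oxidised slopes were between -2.70 (dme-mir-996-5p) and -1.98 (dme-mir-996-3p), and 98.3% of fly arms were called falling. The untreated slopes were between -3.25 (dme-mir-279-5p) and -2.45 (dme-mir-279-3p), and 100% of fly arms were called falling. In the last step the fly share of untreated totals fell 10-fold in no replicate set. It was 0.0338%, 0.0186% and 0.0174% at 1:10000 in replicates 1, 2 and 3. At 1:100000 it was 0.0638%, 0.00409% and 0.00533%. The slopes over 6 ratios include these libraries. The difference of the slopes, oxidised minus untreated, was called for dme-mir-996-3p (0.81 ± 0.24 for each 10-fold dilution, edgeR adjusted p = 0.0397), where 17.9% of fly arms were called positive, and not for dme-mir-279-3p (0.14 ± 0.23, edgeR adjusted p = 0.931) or dme-mir-279-5p (0.93 ± 0.31, edgeR adjusted p = 0.0624). With total counts as the scale, the difference was called for both mir-279 arms as well, at 0.79 for dme-mir-279-3p (edgeR adjusted p = 0.0117) and 1.56 for dme-mir-279-5p (edgeR adjusted p = 0.000312). For dme-mir-996-3p, with the replicate set as a block it was 0.69 (edgeR adjusted p = 0.0563), without replicate 2 it was 0.62 (edgeR adjusted p = 0.495), and without replicate 3 it was 0.64 (edgeR adjusted p = 0.443).

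Neighbouring ratios differed for the guides in some steps only. In oxidised libraries no arm of the locus differed between 1:10 and 1:1, where 0% of fly arms were called lower. The oxidised 1:100 level was below the 1:10 level for dme-mir-996-3p (-3.60 ± 1.11, edgeR adjusted p = 0.0375) and dme-mir-279-5p (-3.24 ± 0.94, edgeR adjusted p = 0.0366), against 40.2% of fly arms called lower. The oxidised 1:1000 level was below the 1:100 level for dme-mir-279-3p (-3.66 ± 1.00) and dme-mir-996-5p (-4.26 ± 1.04), against 31.6%. dme-mir-996-3p changed by -1.19 ± 1.03 in that step, with an edgeR adjusted p of 0.52. In untreated libraries 3 of the 4 arms were lower at 1:10 than at 1:1, with -2.97 ± 1.06 and an edgeR adjusted p of 0.0553 for dme-mir-996-3p, against 67.5% of fly arms. Between 1:100 and 1:10, where 81.2% of fly arms were called lower, it was dme-mir-279-3p that missed the threshold (-2.52 ± 0.94, edgeR adjusted p = 0.0642). Between 1:1000 and 1:100, against 29.1% of fly arms called lower, it was dme-mir-996-3p again (-2.32 ± 1.06, edgeR adjusted p = 0.236). Beyond 1:1000 no arm of the locus differed between neighbouring ratios in either treatment, where 5.98% and 1.71% of fly arms were called lower and 0.855% higher in oxidised libraries and 0% in untreated ones.

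**Figure D4:**
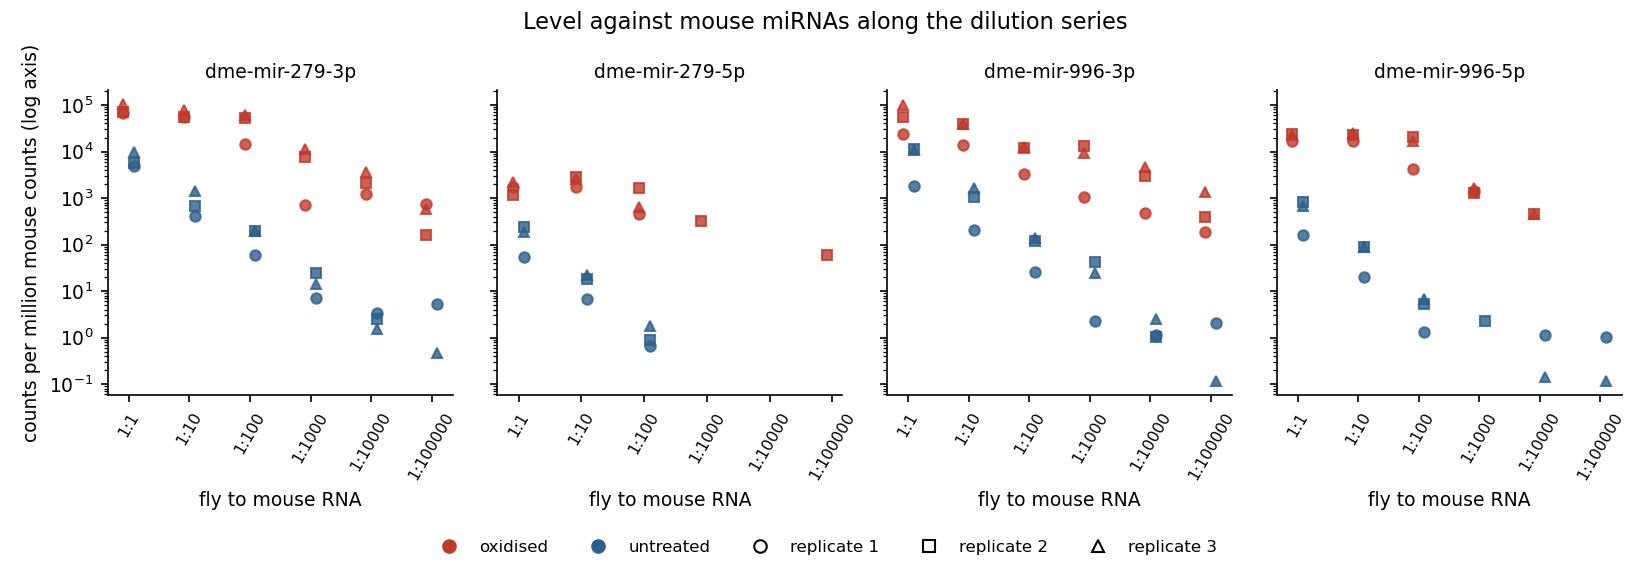
Counts per 1000000 mouse miRNA counts (y axis, log scale) of the 4 arms in each library along the dilution of fly RNA (x axis), with oxidised libraries in red, untreated in blue and replicates as marker shapes; the 26 of 144 values with a count of 0 are not drawn. Oxidised dme-mir-279-3p is at 68931 to 103241 at 1:1, above the 4947 to 9738 of untreated libraries, and for dme-mir-996-3p the replicate 1 library is the lowest of the oxidised group at all 6 ratios.

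The guides of the locus did not vary together across libraries. The 18 libraries at 1:1, 1:10 and 1:100 differ in treatment, depth and replicate set. Over them the log2 shares of fly counts of dme-mir-279-3p and dme-mir-996-3p had a Pearson r of 0.17. Each guide was ranked against the other arms of the 128 fly arms compared. This r was the 64th highest for dme-mir-279-3p, at its median over arms (0.17). For dme-mir-996-3p it was the 40th highest, above its median of -0.18. The arms most like dme-mir-279-3p were dme-mir-1003-3p (r = 0.626), dme-mir-968-3p (0.619), dme-mir-7-3p (0.577), dme-mir-92a-3p (0.563) and dme-mir-982-5p (0.559). Those most like dme-mir-996-3p were dme-mir-79-3p (0.816), dme-mir-9c-3p (0.753), dme-mir-998-5p (0.735), dme-mir-2c-3p (0.712) and dme-mir-9b-5p (0.685). Between the arms of a hairpin r was -0.46 for both mir-279 and mir-996. With 1:1 and 1:10 libraries alone, 1 of the 5 arms most like dme-mir-279-3p and 3 of the 5 most like dme-mir-996-3p were the same.

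Of the other miRNA known to share the seed in flies, mir-286, which acts in the early embryo, only the 3p arm passed the filter. dme-mir-286-3p had 17, 0 and 9 counts in oxidised 1:1 libraries, against 12, 2 and 19 in untreated ones, or 0.00142 ± 0.00141% of fly counts in oxidised and 0.00127 ± 0.000484% in untreated libraries (SD, n = 3 each). Relative to all fly miRNAs it changed by 0.11 ± 0.64 (log2, SE) at 1:1 and was not called at 1:1, 1:10 or 1:100, with no counts at the further ratios. Among all 6 arms of the seed family in the files, 5 were tested, and relative to fly miRNAs 1 was called higher and 1 lower at 1:100, both of them from mir-996, where 13.7% of fly arms were called higher and 12.8% lower, with a median of 0.72 against 0.22 for all fly arms.

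Other miRNAs with known roles in fly sense organs were scarce at 1:1. An arm that did not pass the filter, dme-mir-9a-5p, had 3 counts in untreated 1:1 libraries and 28 in untreated 1:100000 libraries. Its mean share of fly counts at 1:100000 was 2.77%, and it had 0 counts in all oxidised libraries. The source of its reads was not tested. Of 12 arms of mir-7, mir-9a, mir-263a, mir-263b, mir-279 and mir-996, 6 were tested, and 2 of these, dme-mir-7-3p, from a hairpin with roles in photoreceptors and sense organ precursors, and dme-mir-263a-5p, were not from the locus. dme-mir-263a-5p, which protects sensory bristle cells from death, had 199, 7 and 77 counts in oxidised 1:1 libraries, against 224, 33 and 237 in untreated ones. Its TMM-scaled level changed by -0.40 ± 0.67 (log2, SE), while its plain share was higher in 3 of 3 pairs. Relative to fly miRNAs neither of the 2 was called at 1:1, 1:10 or 1:100, and at 1:1000, where 10.3% of fly arms were called lower, so was dme-mir-263a-5p, with 0, 5 and 0 counts in oxidised and 13, 0 and 1 in untreated libraries. The replicate 2 pair there ran the other way.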

How the data were processed

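Small RNAs of 18 to 30 nt were sequenced after depletion of 2S rRNA, with adapters carrying 4 random nucleotides, per the labels' protocols. The deposited values are expected counts per arm, estimated by the authors and not scaled to depth. Named without roles in the submitters' processing notes are HTSeq 0.6.1p1, cutadapt 1.2.1 and the builds dm3 and mm10. For the aligner and for reads matching several entries, the rule is not given in the sources used here. All values of the 4 arms were whole numbers (tolerance 0). Mature sequences are not used here, and gene coordinates served only to place the hairpins inside CR31044.

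Counts were rounded and tested with edgeR 4.0.16 in R 4.3.3 (quasi-likelihood, 1 mean per group, filterByExpr with minimum count 10 and minimum total 15, Benjamini-Hochberg over all tested entries). DESeq2 1.42.0 was an alternative. Arm ratios used a pseudocount of 0.5 and exact two-sided permutation tests in Python 3.11.15 with scipy 1.17.1. Both were tested on simulated data. Wilson intervals (95%) and floors (3 counts) describe counting error alone.

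Of the 3 deposited sets of libraries, the unnumbered one was called replicate 1. No library was a copy of another of its group (36 pairs, chi-square at least 3.72 per degree of freedom). The labels say that each mixture was split, so the oxidised and untreated library of a mixture are paired. Amounts that show such a split, 50 µg mixed and 25 µg per library, are listed for replicates 2 and 3 but not for replicate 1. Over 18 pairs the median correlation of deviations from group means was 0.243, and 12 pairs had r above 0.1. In 11 of the 18 the oxidised library was most like the untreated library of its own replicate number. The members, the lists and the rule for named miRNAs (the 4 arms, the listed arms, the 5 most alike arms of each guide, the neighbours in rank and the entries a scaling turns on) were chosen with earlier results of these data known.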

Additional observations from a re-analysis of the deposited data

Results flagged for a closer look

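The log2 change of dme-mir-996-3p per 10-fold dilution was -1.98 ± 0.20 in oxidised and -2.79 ± 0.21 in untreated libraries (SE), a difference of 0.81 ± 0.24 that passed the edgeR test of the difference itself (adjusted p = 0.0397), which flagged it. Of the 117 fly arms tested, 17.9% passed the same test. Over 1:1, 1:10 and 1:100 alone the difference was 1.00 ± 0.69, with an edgeR adjusted p of 0.478, beside a median of 1.38 over all fly arms.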

How the results depend on the processing

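Relative to mouse miRNAs, no setting and no omission ended a call of a guide arm at 1:1, 1:10 or 1:100 other than dme-mir-996-3p at 1:1, which was between 4.46 and 5.44 without 1 replicate set or library. Relative to all fly miRNAs at 1:1, plain fly totals gave 0.0319 for dme-mir-279-5p, against -0.49 in the main scaling, and 1.89 for dme-mir-996-5p. Fly entries fitted alone gave 1.32 for dme-mir-996-5p at 1:1, which was then called. At 1:10, dme-mir-996-3p was -1.83 without bantam in the scaling and -2.04 in DESeq2, both called, and dme-mir-996-5p was 1.91 without a filter and 1.56 in DESeq2, both not called. At 1:100, dme-mir-996-3p was -2.29 without a filter and not called.

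The replicate block by mixture gave -1.07 at 1:1 and -1.36 at 1:10 for dme-mir-996-3p, 1.43 at 1:1 for dme-mir-996-5p, and -0.75 at 1:100 for dme-mir-279-3p, all called. The block by replicate set gave 1.39 for dme-mir-996-5p at 1:1 and -1.36 for dme-mir-996-3p at 1:10, both called. The block changed no other call at 1:1, 1:10 and 1:100.

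Omissions of 1 replicate set or library moved the changes relative to fly miRNAs over the following ranges. At 1:1, dme-mir-996-3p was between -1.76 and -0.81 and dme-mir-996-5p between 0.72 and 1.69. At 1:10, dme-mir-996-3p was between -1.76 and -1.10 and dme-mir-996-5p between 1.46 and 2.14. At 1:100, dme-mir-996-3p was between -2.64 and -1.90. At 1:10000, dme-mir-996-3p was between -1.19 and 0.75 and dme-mir-996-5p between -1.95 and 0.67, and at 1:100000 dme-mir-279-3p was between -1.72 and 0.38, so no direction can be read there.

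With total counts as the scale, the slope difference of dme-mir-279-3p was 0.79 and that of dme-mir-279-5p 1.56, both called. The slope difference was between -0.10 and 0.56 for dme-mir-279-3p and between -0.50 and 0.46 for dme-mir-996-5p without 1 replicate set. For dme-mir-996-5p it was -0.20 over all ratios, 0.48 with total counts as the scale, 0.84 without 1:100000 and 2.21 over the first 3 ratios, none called. The arm ratio of mir-279 changed by between -0.38 and 0.74 without 1 set and by 0.83 over the first 3 ratios, that of mir-996 by between 1.50 and 2.18, and dme-mir-996-3p over dme-mir-279-3p by -1.02 over the first 3 ratios. The causes were not tested.

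Counts of fly arms called higher relative to fly miRNAs at 1:1, 1:10 and 1:100 were 9, 16 and 16, against 31, 38 and 29 with the mixture block and at most 1 without a filter or in DESeq2. Those called lower at 1:10 and 1:100 were 15 and 15, against 28 and 28 with the mixture block. With few reads beyond 1:100, single libraries set the values there.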
